A study of Rattus norvegicus with 26 samples.

Results

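Chemokines, interleukins, their receptors and a few related cytokines were followed in rat cells that were driven toward smooth muscle. The members were the genes whose array name begins with Ccl, Cxcl, Ccr, Cxcr or Il followed by a digit, together with Ccrl2, Cx3cl1, Lif, Lifr, Il6st, Osmr, Csf1, Csf2, Csf1r, Tnf, Tnfrsf1a and Cd6. Of 125 such genes on the array, 60 had a probe that was well above background throughout 1 or more of the groups and were described here, among 20615 genes tested in all. The cells were rat multipotent adult progenitor cells (rMAPCs), bone marrow cells that express the pluripotency factor Oct4, from female Fischer rats. The line Cl19 came from an animal of 3 weeks and the line 3c3 from an embryo of E18, and each line is 1 clone. Both received TGF-β and PDGF-BB in basal rMAPC medium without serum and were sampled before treatment (d0) and on d2, d4 and d6, with 3 arrays a day for each line. No untreated cells kept to d6 were analysed here. An effect of the cytokines therefore cannot be told apart from that of the serum-free medium or of time in culture. Commercial rat aortic RNA, labelled Prim and used as the smooth muscle cell (SMC) reference, was on 2 arrays. The study's methods describe it as RNA of primary rat SMCs, and it is called aortic RNA here after its label.

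Chemokines are small secreted proteins that bind G protein-coupled receptors and guide cell migration. CXCL12 and its receptor CXCR4 hold progenitor cells in the bone marrow, and ACKR3 is a second CXCL12 receptor that takes the ligand up. CXCL1, CXCL2 and CXCL3 attract neutrophils. LIF, IL-11 and IL-6 each use their own receptor chain together with the shared chain gp130 (Il6st), which signals through JAK kinases and STAT3. The interleukin-1 family holds agonists such as IL-18 and IL-33, the antagonist IL-1RN and the decoy receptor IL-1R2. CSF1 and its receptor CSF1R maintain macrophages, and in arteries many of these ligands are made by injured or inflamed SMCs.

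Levels are given as log2 signal, which is the log2 of the scanner's processed signal after quantile normalization over the 26 arrays. Changes are differences of log2 signal from d0 with their standard error (SE) and the adjusted p of a limma fit over 24442 probes, with a threshold of 0.05. The study's methods call the 3 arrays of a day biological replicates, while the labels do not say whether they came from separate cultures, and the p-values measure the spread between these arrays. A fold is written as "at least" where the dimmer group held arrays not well above background. In those cases it was set against the lowest signal that the array measured above background, and the log2 change itself is no measure of its size. In these bulk samples, fewer cells that express a gene and less RNA per cell cannot be told apart. The cells followed their labels on d0, where Oct4 (Pou5f1) lay at 10.22 to 10.31 in Cl19 and 11.47 to 11.63 in 3c3, and the summed signal of 6 smooth muscle markers rose from 10.84 to 11.12 on d0 to 15.90 to 16.16 on d6 in Cl19 and from 10.49 to 10.71 to 14.82 to 15.49 in 3c3. By d6, 5 of these 6 markers had risen in each line. The other, Myocd, was not called in Cl19 (0.05, adjusted p = 0.92) and fell in 3c3 (-1.20, adjusted p = 0.0040).

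The array labelled Cl19 d2 replicate 1 stood apart from its group. Over the 60 members its root mean square difference was 1.37 and 1.34 log2 units from the other Cl19 d2 arrays but 0.519 to 0.651 from the 3c3 d2 arrays. It is kept under its label, and Cl19 d2 values are given with and without it. The slide that carried replicate 3 of 3c3 had a smaller share of probes well above background on d4 and d6, at 44.3% and 43.2%, than the other slides of the line. Each line and the aortic RNA were scanned on a day of their own, so a level that differs between them cannot be told apart from the scan day, and tests were made on changes within a line and on the difference of those changes, not on levels between lines.

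By d6, Cl19 had 19 members above and 12 below their d0 level, and 3c3 had 24 above and 8 below. Of all probes tested, 22.0% rose and 30.3% fell in Cl19, and 19.7% rose and 28.6% fell in 3c3. The members changed by a median of 0.08 in Cl19 and 0.18 in 3c3, beside -0.20 and -0.21 over all probes. Detection bears on these counts, since 18 members passed the filter through 1 group alone and 8 of the 60 passed through d6 groups alone (Csf2, Cxcl11, Cxcl2, Cxcl3, Il1f5, Il21r, Il23a and Tnf), which had to be higher there. Among the 18 members well above background on every rMAPC array, refitted among such probes, 3 rose and 7 fell in Cl19, where 21.8% and 36.5% of those probes were, and 8 rose and 4 fell in 3c3, against 22.6% and 33.7%. Earlier, 6 members were higher and 9 lower on d2 in Cl19 (11.2% and 11.5% of all probes), and 13 were higher and 12 lower on d4 (20.2% and 27.1%). With the slide as a replicate block 10 were higher on d2 in Cl19, and the share of all probes in that fit is not given here. Without Cl19 d2 replicate 1 the d2 counts were 7 and 12, where 11.9% and 13.0% of probes were called, and 13 members were called both ways. In 3c3, 8 were higher and 6 lower on d2 (9.80% and 9.27%), and 13 were higher and 8 lower on d4 (14.8% and 22.2%). Over the whole time course 36 members changed in Cl19, where 54.3% of probes did, 32 in 3c3, where 50% did, and 27 in both, where 38.7% did. These are 60.0%, 53.3% and 45.0% of the members.

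On d6 the lines shared the direction of 19 calls. Of all probes, 13.2% rose in both lines and 20.4% fell in both, 1.93% were called in opposite directions and 35.0% were called in neither. Cx3cl1, Cxcl1, Cxcl2, Cxcr4, Cxcr7, Il11, Il13ra1, Il18, Il1rn, Il24, Il4ra and Tnf were the 12 that rose. Ccr4, Cd6, Csf1, Cxcl14, Il33, Il6st and Lifr were the 7 that fell. Ccrl2, Il11ra1 and Il17re were called in opposite directions, and 19 members were called on d6 in neither line. Every call on d6, 31 in Cl19 and 32 in 3c3, had its direction on each of the line's 3 slides. The calls were made from these same arrays, so this is no independent check. The share of all called probes that did so is not given here.

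**Figure D1:**
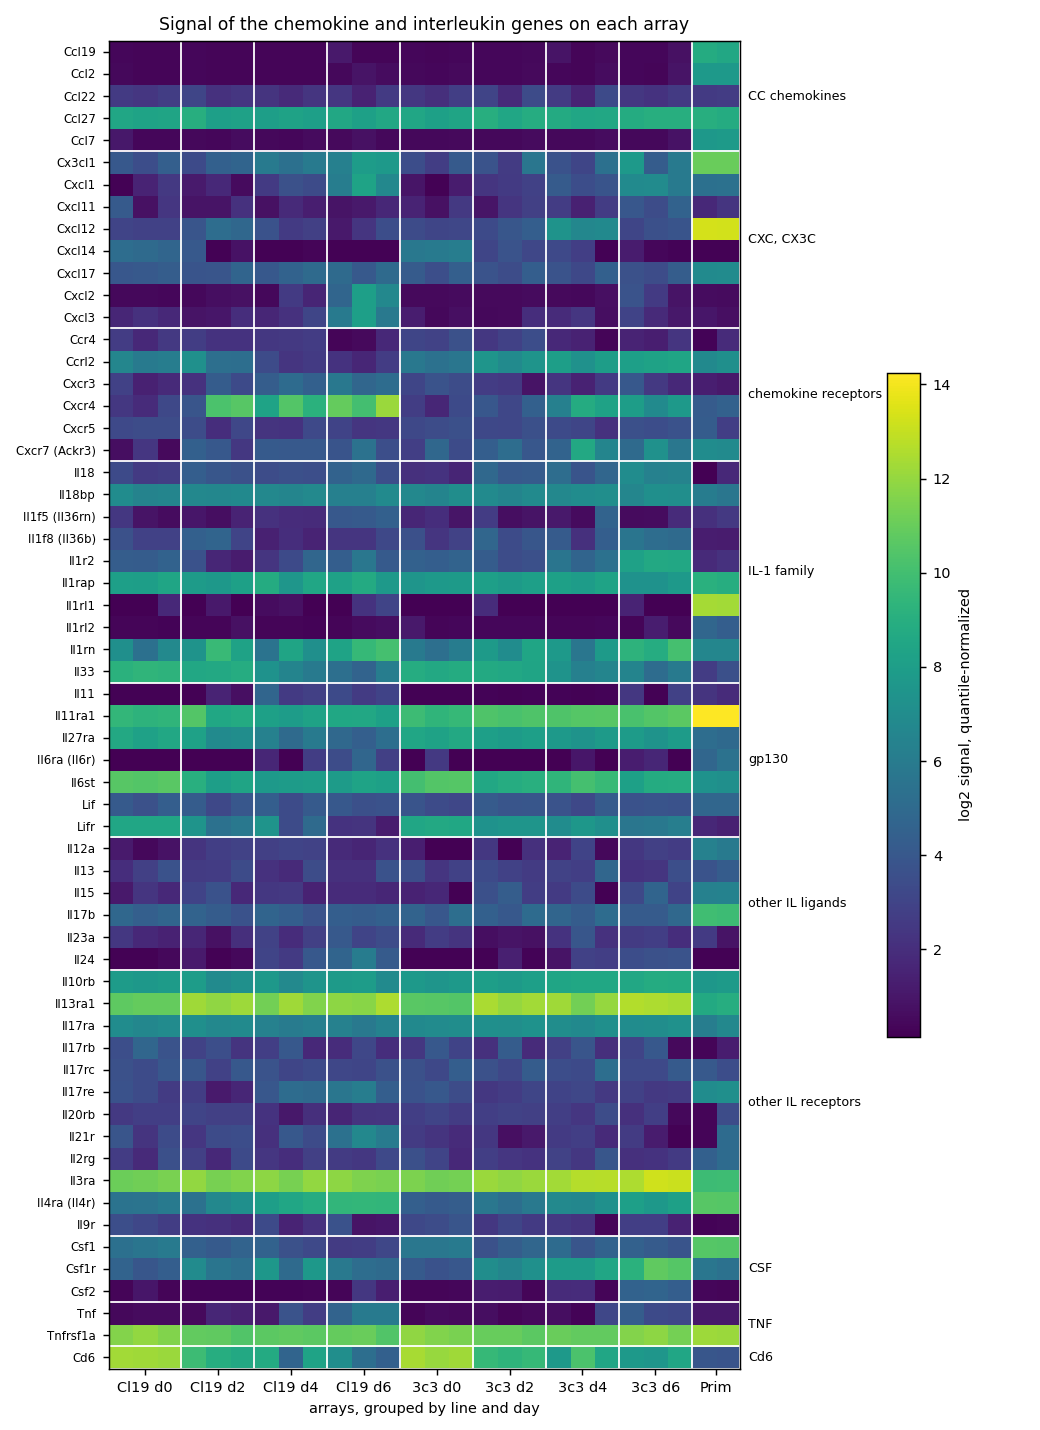
Log2 signal of the 60 members (rows, grouped by role) on each of the 26 arrays (columns, by line and day, with Prim at the right), coloured by level. Cxcr4 and Il4ra brighten toward d6 in both lines, Lifr and Cd6 dim, and Il1rl1, Ccl19, Ccl2 and Ccl7 are bright on the Prim arrays.

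Both CXCL12 receptors rose, and Cxcr4 had the largest d6 rise of any member in Cl19. In Cl19, Cxcr4 lay at 2.46, 1.88 and 3.19 on d0, at 3.88, 10.28 and 10.57 on d2, at 8.32, 10.46 and 9.17 on d4 and at 10.91, 10.05 and 12.14 on d6. The low d2 value is that of the array that stood apart, and all other treated Cl19 arrays were far above d0. In 3c3 it lay at 2.73, 1.67 and 3.31 on d0, 3.96, 3.17 and 4.46 on d2, 6.31, 8.80 and 8.29 on d4, and 7.98, 6.87 and 7.72 on d6. By d6 Cxcr4 had risen at least 323-fold in Cl19 (log2 change 8.53, SE 1.19, adjusted p = 5.7e-06) and at least 26.2-fold in 3c3 (4.95, SE 1.19, adjusted p = 0.0019). The d2 change in Cl19 was 5.74 with all arrays and 7.92 without replicate 1 (adjusted p = 0.0014 and 2.2e-07), whereas d2 was not called in 3c3. A second Cxcr4 probe rose by 10.01 and 6.44. With normexp background correction, which compresses low signals, the 3c3 change was 1.91 (adjusted p = 0.054). The difference between the lines, 3.58 (SE 1.68), did not pass the threshold (adjusted p = 0.17).

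Ackr3, on the array as Cxcr7, rose in both lines to a smaller extent. Its Cl19 values were 0.68, 2.40 and 0.49 on d0 and 3.84, 5.44 and 3.55 on d6, and its 3c3 values were 2.76, 4.85 and 3.36 on d0 and 5.04, 7.27 and 5.75 on d6. No d6 array overlapped with d0. The log2 change was 3.09 (SE 0.84, adjusted p = 0.0043) in Cl19, at least 3.61-fold, and 2.36 (SE 0.84, adjusted p = 0.026) in 3c3, at least 5.14-fold. In Cl19 it was already called on d2 (2.45, adjusted p = 0.042), a call that was lost without replicate 1 (2.04, adjusted p = 0.13).

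Their ligand Cxcl12 was raised for part of the time course and was not called on d6 in either line. In Cl19 it lay at 3.03, 2.88 and 2.88 on d0, 3.86, 5.18 and 4.87 on d2, 3.68, 2.52 and 2.84 on d4, and 1.13, 2.33 and 3.48 on d6. The 3c3 arrays read 3.35, 3.10 and 3.17 on d0, 3.32, 3.92 and 4.34 on d2, 7.38, 6.70 and 6.84 on d4, and 3.11, 3.59 and 3.82 on d6. The raised days therefore differed, d2 in Cl19 (1.71, SE 0.44, adjusted p = 0.0084; without replicate 1, 2.09 and 0.0025) and d4 in 3c3 (3.77, SE 0.44, adjusted p = 2.7e-06, at least 13.6-fold). The d6 changes were -0.62 (SE 0.44, adjusted p = 0.26) and 0.30 (SE 0.44, adjusted p = 0.61), though without Cl19 d6 replicate 3 the Cl19 change was -1.20 and was called (adjusted p = 0.021). A second, dimmer Cxcl12 probe was well above background on 3 arrays in all. On the aortic RNA Cxcl12 lay at 13.34 and 13.28.

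The neutrophil-attracting chemokines Cxcl1, Cxcl2 and Cxcl3 appeared late. Cxcl1 was called in both lines with changes of like size, while the changes of Cxcl2 and Cxcl3 differed between the lines. Cxcl1 lay at 0.26, 1.55 and 2.48 on d0 and 6.11, 8.32 and 6.73 on d6 in Cl19, and at 0.93, 0.26 and 1.21 on d0 and 6.89, 6.94 and 5.97 on d6 in 3c3. The groups were widely separated. Its change was 5.62 (SE 0.53, adjusted p = 4.4e-08), at least 24.0-fold, in Cl19 and 5.80 (SE 0.53, adjusted p = 5.5e-08), at least 15.2-fold, in 3c3, and the difference of -0.17 (SE 0.75) was not called (adjusted p = 0.94). The first day called was d2 in 3c3 (1.78, adjusted p = 0.023) and d4 in Cl19 (1.75, adjusted p = 0.011), but a difference in timing was not tested. The 3c3 call on d2 lay near background. Of the 3 arrays of 3c3, 1 was well above background on d2 and 2 were on d4, while all 3 Cl19 arrays were on d4.

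Cxcl2 lay at 0.46, 0.44 and 0.38 on d0 and 4.77, 8.09 and 6.74 on d6 in Cl19, whereas 3c3 went from 0.49, 0.49 and 0.55 to 3.76, 2.57 and 0.91. All 3 Cl19 arrays and 2 of the 3c3 arrays were well above background on d6. The change was 6.11 (SE 0.65, adjusted p = 2.0e-07), at least 18.0-fold, in Cl19 and 1.91 (SE 0.65, adjusted p = 0.020) in 3c3. The 3c3 call was lost without d6 replicate 1 (1.23, adjusted p = 0.14) or replicate 2 (1.83, adjusted p = 0.055) and with dim values set to a floor (0.84, adjusted p = 0.28). The changes differed between the lines by 4.20 (SE 0.92, adjusted p = 0.0028). Cxcl3 lay at 1.68, 2.14 and 1.78 on d0 and 5.88, 8.13 and 5.84 on d6 in Cl19, a rise of 4.75 (SE 0.61, adjusted p = 2.3e-06), at least 19.1-fold. In 3c3 it lay at 1.26, 0.48 and 0.74 on d0 and 3.00, 1.84 and 1.05 on d6, which overlapped (1.13, SE 0.61, adjusted p = 0.14), and this line difference of 3.61 was called (SE 0.87, adjusted p = 0.0057). These genes are close paralogs on chromosome 14, and cross-hybridization between their probes was not tested.

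The stretches before the start sites of Cxcl1, Cxcl2, Cxcl11 and Il11 are shown as examples of ligand genes that rose on d6 and hold a match to the NF-kB consensus or to the AP-1 motif, both of which are classically linked to induced cytokine genes. They were chosen after the search, and the other members with a match were Il15, which rose in 3c3, Cxcl14, which fell in both lines, Il27ra, which fell in Cl19, and Ccl7 and Il1rap, which were not called. They are RefSeq sequences of 250 bases up to the start on build GRCr8, written 5′ to 3′ on the gene's strand with the matches in capitals. Cxcl1 is at chr14:17479322-17479571 (minus strand), Cxcl2 at chr14:17467256-17467505 (minus), Cxcl11 at chr14:15973478-15973727 (plus) and Il11 at chr1:78098372-78098621 (plus).
Cxcl1: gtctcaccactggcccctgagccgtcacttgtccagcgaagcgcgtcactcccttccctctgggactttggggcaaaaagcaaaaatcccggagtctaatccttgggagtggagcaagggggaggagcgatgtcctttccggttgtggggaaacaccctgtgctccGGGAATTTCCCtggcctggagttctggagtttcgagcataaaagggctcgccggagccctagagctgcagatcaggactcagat
Cxcl2: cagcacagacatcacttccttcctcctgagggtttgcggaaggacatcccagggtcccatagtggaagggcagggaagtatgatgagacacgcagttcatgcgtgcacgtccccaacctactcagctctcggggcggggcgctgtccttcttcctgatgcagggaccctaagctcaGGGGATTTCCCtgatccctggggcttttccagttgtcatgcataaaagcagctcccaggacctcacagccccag
Cxcl11: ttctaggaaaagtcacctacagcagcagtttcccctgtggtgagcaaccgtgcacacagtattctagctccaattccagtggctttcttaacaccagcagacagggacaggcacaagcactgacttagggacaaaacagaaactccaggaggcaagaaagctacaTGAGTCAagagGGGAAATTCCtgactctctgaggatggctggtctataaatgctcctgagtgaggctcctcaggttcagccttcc
Il11: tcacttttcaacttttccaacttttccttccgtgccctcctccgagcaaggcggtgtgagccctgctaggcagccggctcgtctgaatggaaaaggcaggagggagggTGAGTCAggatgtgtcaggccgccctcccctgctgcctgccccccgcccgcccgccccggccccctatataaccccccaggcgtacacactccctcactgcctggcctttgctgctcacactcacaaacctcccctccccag
In Cxcl1 and Cxcl2 the capitals cover a pair of overlapping NF-kB matches (in Cxcl1, 1 on each strand). In Cxcl11 they mark an AP-1 match and then an NF-kB match, and in Il11 an AP-1 match. NF-kB was searched by its consensus and AP-1 as TGANTCA, both on both strands. Of 47 members with an entry, 6 held an NF-kB match and 5 an AP-1 match, while 6.33% and 6.34% of all 33469 promoters of that length did. Among members that rose on d6 in both lines, 2 of 12 held an NF-kB match and 1 an AP-1 match, and among those that fell in both, 0 and 1 of the 4 with an entry. A match is a description of the letters, and the arrays measured no binding.

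Tnf, the founding inflammatory cytokine of its family, followed a like course. It lay at 0.43, 0.55 and 0.54 on d0 and 4.63, 5.95 and 5.95 on d6 in Cl19, and at 0.34, 0.56 and 0.52 on d0 and 4.29, 3.34 and 3.18 on d6 in 3c3. No d0 array was well above background, and on d6 all 3 Cl19 arrays and 2 of the 3c3 arrays were. The change was 5.0 (SE 0.62, adjusted p = 1.5e-06), at least 8.87-fold, in Cl19 and 3.13 (SE 0.62, adjusted p = 0.00037), at least 1.91-fold, in 3c3. Its receptor Tnfrsf1a was bright throughout and fell in Cl19, from 11.63, 11.94 and 11.59 to 10.91, 11.01 and 10.44 on d6 (-0.93, SE 0.18, adjusted p = 0.00019). In 3c3 it was lower on d2 (-0.76, adjusted p = 0.0048) and d4 (-0.72, adjusted p = 0.0034) and stood at 11.62, 11.83 and 11.31 on d6, beside 11.89, 11.60 and 11.43 on d0 (-0.05, SE 0.18, adjusted p = 0.84). Tnf was well above background on neither Prim array.

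Of the other chemokine ligands, Cxcl14 fell and Cx3cl1 rose in both lines. Cxcl14, an attractant for monocytes and immature dendritic cells, lay at 5.17, 5.02 and 4.74 on d0 in Cl19 and at 5.81, 5.90 and 6.10 in 3c3, and on d6 none of the 6 arrays was well above background. The fall was at least 8.25-fold in Cl19 (adjusted p = 1.7e-05) and at least 8.63-fold in 3c3 (adjusted p = 6.8e-06). It was called from d2 in both (adjusted p = 0.0025 and 0.015), and in Cl19 the d2 arrays read 4.10, 0.22 and 0.83, the first being the array that stood apart (change -3.26, or -4.45 without it). Cx3cl1, the membrane-bound chemokine fractalkine, lay at 4.05, 3.49 and 4.44 on d0 and 6.28, 7.92 and 7.71 on d6 in Cl19 (3.31, SE 0.80, adjusted p = 0.0016). In 3c3 it went from 3.48, 2.70 and 4.14 to 7.78, 4.28 and 5.92 (2.55, SE 0.80, adjusted p = 0.012). The 3c3 call was lost without d6 replicate 1 (1.66, adjusted p = 0.093) or d0 replicate 2 (2.18, adjusted p = 0.056). A second, dimmer Cx3cl1 probe did not bear out the call in either line (1.55, adjusted p = 0.13, and -0.40, adjusted p = 0.73).

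Cxcl11, a ligand of CXCR3, rose in 3c3 alone, from 1.58, 0.77 and 2.47 to 3.98, 3.44 and 4.60 (2.40, SE 0.67, adjusted p = 0.0056, at least 2.53-fold). The Cl19 arrays read 4.16, 0.81 and 2.36 on d0 and 0.88, 1.11 and 1.73 on d6 (-1.21, SE 0.67, adjusted p = 0.14), or -2.02 without d0 replicate 2 (adjusted p = 0.013). The receptor Cxcr3 showed the reverse, rising in Cl19 from 2.87, 1.44 and 1.85 to 5.81, 4.83 and 5.15 (3.21, SE 0.58, adjusted p = 1.0e-04, at least 7.25-fold). The values in 3c3 were 3.07, 3.76 and 3.44 on d0 and 4.03, 2.49 and 1.80 on d6 (-0.65, SE 0.58, adjusted p = 0.38). Both line differences were called, at -3.61 (SE 0.94, adjusted p = 0.010) for Cxcl11 and 3.86 (SE 0.81, adjusted p = 0.0021) for Cxcr3. On no day were ligand and receptor both well above background on all 3 arrays of a line.

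Ccrl2, a receptor that binds chemerin without signaling, showed the largest line difference of the members. In Cl19 it lay at 6.63, 5.97 and 6.10 on d0, 7.24, 5.32 and 5.23 on d2, 3.37, 2.31 and 2.56 on d4, and 2.21, 1.69 and 2.64 on d6. The 3c3 arrays read 5.80, 5.40 and 5.67 on d0, 7.48, 6.90 and 7.47 on d2, 8.03, 7.30 and 8.02 on d4, and 8.10, 8.28 and 8.46 on d6. The courses parted from a like start. By d6 Ccrl2 had fallen at least 15.4-fold in Cl19 (-4.05, SE 0.41, adjusted p = 1.1e-07) and risen 6.29-fold in 3c3 (2.65, SE 0.41, adjusted p = 2.8e-05), a difference of -6.70 (SE 0.58, adjusted p = 2.2e-07). On d2 the Cl19 change was -0.30 with all arrays (adjusted p = 0.69) and -0.96 without replicate 1 (adjusted p = 0.035).

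**Figure D2:**
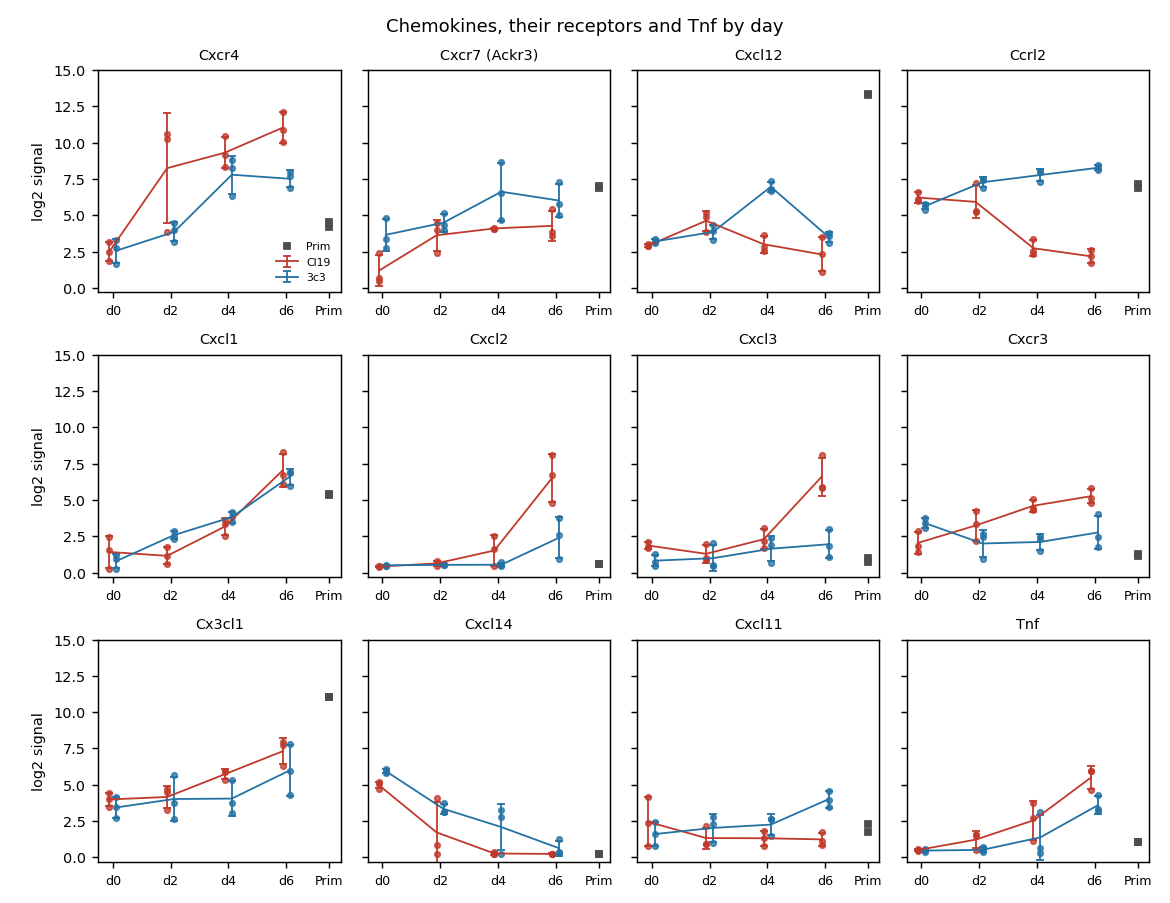
Log2 signal (vertical axis) by day (horizontal axis) of 12 chemokine, receptor and TNF genes in Cl19 and 3c3, with points for arrays, lines for means, bars for the SD of 3 arrays and squares for the 2 Prim arrays. Cxcr4 and Cxcl1 climb in both lines, Cxcl12 peaks on d2 in Cl19 and on d4 in 3c3, and Ccrl2 ends at 1.69 to 2.64 in Cl19 but at 8.10 to 8.46 in 3c3.

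Most CC chemokines on the array did not pass the detection filter, and Ccl27 alone was well above background on all 24 rMAPC arrays. Of 19 names on the array 5 were members, and Ccl2 and Ccl7, which attract monocytes, and Ccl19, which guides lymphocytes and dendritic cells, were well above background on no rMAPC array. On the aortic RNA Ccl2 lay at 7.76 and 7.80, Ccl7 at 7.67 and 7.85, and Ccl19 at 8.82 and 8.58. Ccl22 stayed between 1.49 and 3.36 in the lines and was called on no day. Ccl27 rose in 3c3 by 0.61 (SE 0.19, adjusted p = 0.013), from 8.48, 8.16 and 8.36 to 8.85, 9.01 and 8.99. Among the CC receptors only Ccr4, a T cell receptor for CCL22, was a member, and it fell by 1.44 in Cl19 (adjusted p = 0.011) and by 1.48 in 3c3 (adjusted p = 0.010), with no d6 array well above background. On d0 all 3 arrays of 3c3 but only 1 of 3 in Cl19 were well above background. The Cl19 fall thus lay near background, and neither log2 change is a measure of its size.

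The receptor chains for LIF fell in both lines. In Cl19, Lifr lay at 8.50, 8.47 and 8.49 on d0, 7.43, 5.42 and 5.78 on d2, 7.45, 3.38 and 5.04 on d4, and 2.22, 2.26 and 1.23 on d6, when 1 of 3 arrays was still well above background. In 3c3 it lay at 8.50, 8.67 and 8.57 on d0, 7.32, 7.52 and 7.49 on d2, 7.02, 7.63 and 7.19 on d4, and 5.69, 5.80 and 6.16 on d6. The d0 and d6 arrays of a line did not overlap, while d2 and d4 did, and d0 was alike in both lines. By d6 Lifr had fallen at least 79.3-fold in Cl19 (-6.59, SE 0.64, adjusted p = 6.6e-08) and 6.49-fold in 3c3 (-2.70, SE 0.64, adjusted p = 0.0018). The fall was larger in Cl19 by 3.89 (SE 0.91, adjusted p = 0.0047), a call that was lost with normexp background correction (-0.64, adjusted p = 0.30).

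The shared chain Il6st fell early and less. In Cl19 it went from 10.56, 10.48 and 10.66 on d0 to 9.04, 8.03 and 8.39 on d2 and 7.91, 8.31 and 8.18 on d6, and in 3c3 from 10.05, 10.50 and 10.51 to 8.62, 8.89 and 9.06 on d2 and 8.19, 8.80 and 8.89 on d6. Between these days 3c3 stood higher, at 9.36, 10.11 and 9.65 on d4. On d6 the change was -2.43 (SE 0.24, adjusted p = 8.6e-08) in Cl19 and -1.73 (SE 0.24, adjusted p = 9.4e-06) in 3c3. The ligand Lif itself stayed between 3.15 and 4.38 over all days and was not called on d6 (-0.29, adjusted p = 0.43, and 0.28, adjusted p = 0.45). Osmr and Il6 were well above background on no array.

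Other chains that pair with gp130 moved in ways that differed between the lines. The IL-6 receptor, on the array as Il6ra, was well above background on 0 of 3 Cl19 arrays on d0 and on all 3 on d6, at 3.42, 4.82 and 2.80 (adjusted p = 8.3e-05, at least 2.49-fold higher). In 3c3 it read 1.28, 1.69 and 0.16 on d6, none well above background (0.11, adjusted p = 0.90), and the line difference was 3.41 (SE 0.88, adjusted p = 0.0096) but was not called with dim values set to a floor (1.19, adjusted p = 0.37). Il11ra1, the IL-11 receptor, fell in Cl19 from 9.46, 9.29 and 9.37 to 8.54, 8.60 and 8.18 (-0.93, SE 0.31, adjusted p = 0.016, or -0.81 and 0.065 without d6 replicate 3). It rose in 3c3 from 9.81, 9.40 and 9.61 to 10.18, 10.47 and 10.69 (0.84, SE 0.31, adjusted p = 0.031), a call lost without replicate 2 or 3 of either d0 or d6 (0.72 to 0.85, adjusted p = 0.064 to 0.11). The difference of -1.78 was called (SE 0.44, adjusted p = 0.0071). Its ligand Il11 went from below background on d0 to 4.73, 2.53 and 2.80 on d4 and 3.31, 2.62 and 2.96 on d6 in Cl19, at least 1.52-fold higher (adjusted p = 0.00023). On d6 in 3c3 it passed background on 1 array (1.62, SE 0.53, adjusted p = 0.017), and that call was lost without d6 replicate 1 (1.34, adjusted p = 0.073) or 3 (1.10, adjusted p = 0.11). Il27ra, the gp130 partner for IL-27, fell in Cl19 from 8.66, 8.23 and 8.63 on d0 through 6.32, 5.0 and 5.90 on d4 to 4.90, 4.44 and 5.23 on d6, or 12.6-fold (-3.65, SE 0.32, adjusted p = 1.6e-08). In 3c3 it lay at 8.47, 8.29 and 8.64 on d0 and 7.87, 7.39 and 7.88 on d6 (-0.76, SE 0.32, adjusted p = 0.057), which was called with the slide as a replicate block (adjusted p = 0.0049). The lines differed by -2.89 (SE 0.45, adjusted p = 0.00013).

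In the interleukin-1 family an alarmin fell while an antagonist and an inflammasome substrate rose. Il33, the nuclear alarmin, lay at 9.15, 9.36 and 9.24 on d0 and 5.31, 4.65 and 6.10 on d6 in Cl19, and at 8.89, 8.68 and 8.81 on d0 and 6.52, 5.13 and 5.97 on d6 in 3c3. It fell 14.9-fold (-3.89, SE 0.39, adjusted p = 1.1e-07) and 7.55-fold (-2.92, SE 0.39, adjusted p = 6.3e-06), with the first calls on d4. Its receptor Il1rl1 was at 12.36 and 12.30 on the aortic RNA and was not called in the lines (1.12, adjusted p = 0.13, and 0.47, adjusted p = 0.55), except in Cl19 without d6 replicate 1 (1.95, adjusted p = 0.0062) or d0 replicate 3 (1.65, adjusted p = 0.041). The shared accessory chain Il1rap stayed at 7.33 to 8.81 and was not called (0.08, adjusted p = 0.83, and -0.21, adjusted p = 0.54).

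The antagonist Il1rn rose in both lines. It lay at 7.18, 5.35 and 6.79 on d0 and 8.33, 9.62 and 10.08 on d6 in Cl19, and at 5.96, 5.32 and 6.06 on d0 and 9.28, 8.88 and 10.10 on d6 in 3c3. It rose 7.49-fold (2.90, SE 0.73, adjusted p = 0.0024) and 12.5-fold (3.64, SE 0.73, adjusted p = 0.00041). Il18, which is matured by caspase-1, rose in both but further in 3c3. It lay at 3.32, 2.53 and 2.73 on d0 and 4.56, 4.96 and 3.53 on d6 in Cl19 (1.49, SE 0.42, adjusted p = 0.0053), and at 2.09, 2.20 and 1.60 on d0 and 6.98, 6.35 and 6.44 on d6 in 3c3, at least 15.2-fold (4.63, SE 0.42, adjusted p = 4.6e-08). That difference of -3.13 was called (SE 0.59, adjusted p = 8.0e-04), and the soluble inhibitor Il18bp stayed at 6.30 to 7.15 without a call.

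The decoy receptor Il1r2 rose in 3c3 and dipped in Cl19. The 3c3 arrays read 4.55, 4.39 and 4.62 on d0, 4.27, 3.44 and 3.60 on d2, 5.61, 4.68 and 5.43 on d4, and 8.22, 8.67 and 8.62 on d6, 15.8-fold higher (3.98, SE 0.58, adjusted p = 1.5e-05). The Cl19 arrays read 4.31, 4.27 and 4.60 on d0, 3.72, 1.64 and 1.20 on d2, and 4.38, 5.75 and 4.12 on d6 (0.36, SE 0.58, adjusted p = 0.64). The d2 dip was called (-2.21, adjusted p = 0.0087; without replicate 1, -2.98 and 0.00034), and so was the d6 line difference (-3.63, SE 0.82, adjusted p = 0.0036). The array's Il1f8 (IL-36 beta, Il36b) rose in 3c3 by 2.34 (SE 0.53, adjusted p = 0.0011), at least 4.72-fold, to 5.63, 5.19 and 5.03 from 3.59, 2.32 and 2.93. In Cl19 it was at 3.63, 2.88 and 2.86 on d0 and 2.31, 2.35 and 3.19 on d6 (-0.51, adjusted p = 0.45), which differed from 3c3 by -2.84 (SE 0.75, adjusted p = 0.011). The IL-36 receptor antagonist, listed as Il1f5 (Il36rn), rose in Cl19 instead, from 2.42, 0.92 and 0.63 to 4.01, 4.15 and 4.46 (2.88, SE 0.76, adjusted p = 0.0032), with 1.69, 1.98 and 0.94 on d0 and 0.59, 0.62 and 1.86 on d6 in 3c3 (-0.51, adjusted p = 0.61). Its line difference of 3.40 (SE 1.07, adjusted p = 0.032) lay near the threshold and was lost when any of 8 arrays was left out (adjusted p = 0.052 to 0.085). Il1r1, Il1a and Il1b were not tested, being well above background on 1 array at most.

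The macrophage growth factor receptor Csf1r rose in 3c3 while its ligand Csf1 fell in both lines. In 3c3, Csf1r lay at 4.15, 3.68 and 3.97 on d0, 7.07, 6.57 and 7.25 on d2, 7.89, 7.89 and 8.49 on d4, and 9.18, 10.81 and 10.52 on d6, a step up at each day. It was 75.4-fold higher on d6 (6.24, SE 0.56, adjusted p = 4.6e-08). In Cl19 it lay at 4.64, 3.93 and 4.35 on d0, 6.97, 5.63 and 5.32 on d2, 7.64, 5.02 and 7.68 on d4, and 5.84, 5.17 and 5.0 on d6. There it was called on d2 (1.67, adjusted p = 0.038) and d4 (2.48, adjusted p = 0.0012) but not on d6 (1.03, SE 0.56, adjusted p = 0.14, but 0.040 without d4 replicate 2 and 0.013 in the deposited table), and the d2 call was lost without replicate 1 (1.17, adjusted p = 0.17). The lines differed on d6 by -5.20 (SE 0.80, adjusted p = 0.00011). Of 3 Csf1r probes on the array, only 1 was tested. The others were well above background on 3 arrays and on 0 arrays in all. Their d6 changes were -0.03 and -0.06 in Cl19 and -0.21 and 0.04 in 3c3, so the Csf1r values rest on 1 probe. Csf1 went from 5.37, 5.61 and 5.90 to 2.61, 2.71 and 3.17 in Cl19, a fall of at least 6.95-fold (adjusted p = 7.4e-07), and from 5.73, 5.74 and 5.89 to 4.52, 4.18 and 3.84 in 3c3, a fall of at least 2.80-fold (adjusted p = 0.00048). Csf2 (GM-CSF) was well above background on all arrays of a group on d6 in 3c3 alone, where it read 4.56, 4.68 and 4.35, at least 3.63-fold higher (4.18, SE 0.42, adjusted p = 1.5e-07). In Cl19 it read 0.33, 2.42 and 1.35 on d6 (0.80, SE 0.42, adjusted p = 0.12, or 1.32 and 0.0094 without d6 replicate 1), and that difference was called (-3.38, SE 0.59, adjusted p = 0.00039).

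Cd6, a scavenger receptor of T cells, was bright on d0 in both rMAPC lines and fell at each sampled day. The Cl19 arrays read 12.27, 12.22 and 12.12 on d0, 9.80, 8.92 and 8.68 on d2, 8.75, 4.72 and 8.31 on d4, and 7.10, 5.26 and 4.49 on d6. In 3c3 it lay at 12.41, 12.05 and 12.23 on d0, 9.61, 9.34 and 9.58 on d2, 7.76, 10.23 and 8.47 on d4, and 7.77, 7.56 and 8.48 on d6. Every treated array lay below every d0 array. It was 96.0-fold lower on d6 in Cl19 (-6.58, SE 0.79, adjusted p = 9.6e-07) and 19.6-fold lower in 3c3 (-4.30, SE 0.79, adjusted p = 0.00017), and a second probe fell by 6.00 and 4.23. On the Prim arrays it was not well above background.

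Markers of leukocytes were read beside these genes. Of 15 leukocyte and macrophage markers on the array, 5 to 10 were well above background on any rMAPC array. Their summed log2 signal was 8.67 to 8.89 on d0 and 10.73 to 11.06 on d6 in Cl19, and 8.67 to 8.93 and 10.78 to 11.14 in 3c3. Of 7 that were tested, 3 rose, 1 fell and 3 were not called on d6 in Cl19, and 2 rose and 5 were not called in 3c3. Coro1a (3.31 and 3.29) and Lyz2 (4.74 and 4.06) rose in both lines. In Cl19 Laptm5 rose (1.40, adjusted p = 0.033) and Cd14 fell (-0.87, adjusted p = 0.036), and neither change was shown to differ from 3c3 (adjusted p = 0.19 and 0.21). The defining markers Itgam, Itgb2 and Cd3e were well above background on no rMAPC array, and Ptprc and Spi1 each on 1, a Cl19 d6 array. On the aortic RNA Ptprc was well above background on both arrays, at 4.98 and 5.24. The part of such cells in the members' changes was not tested.

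**Figure D3:**
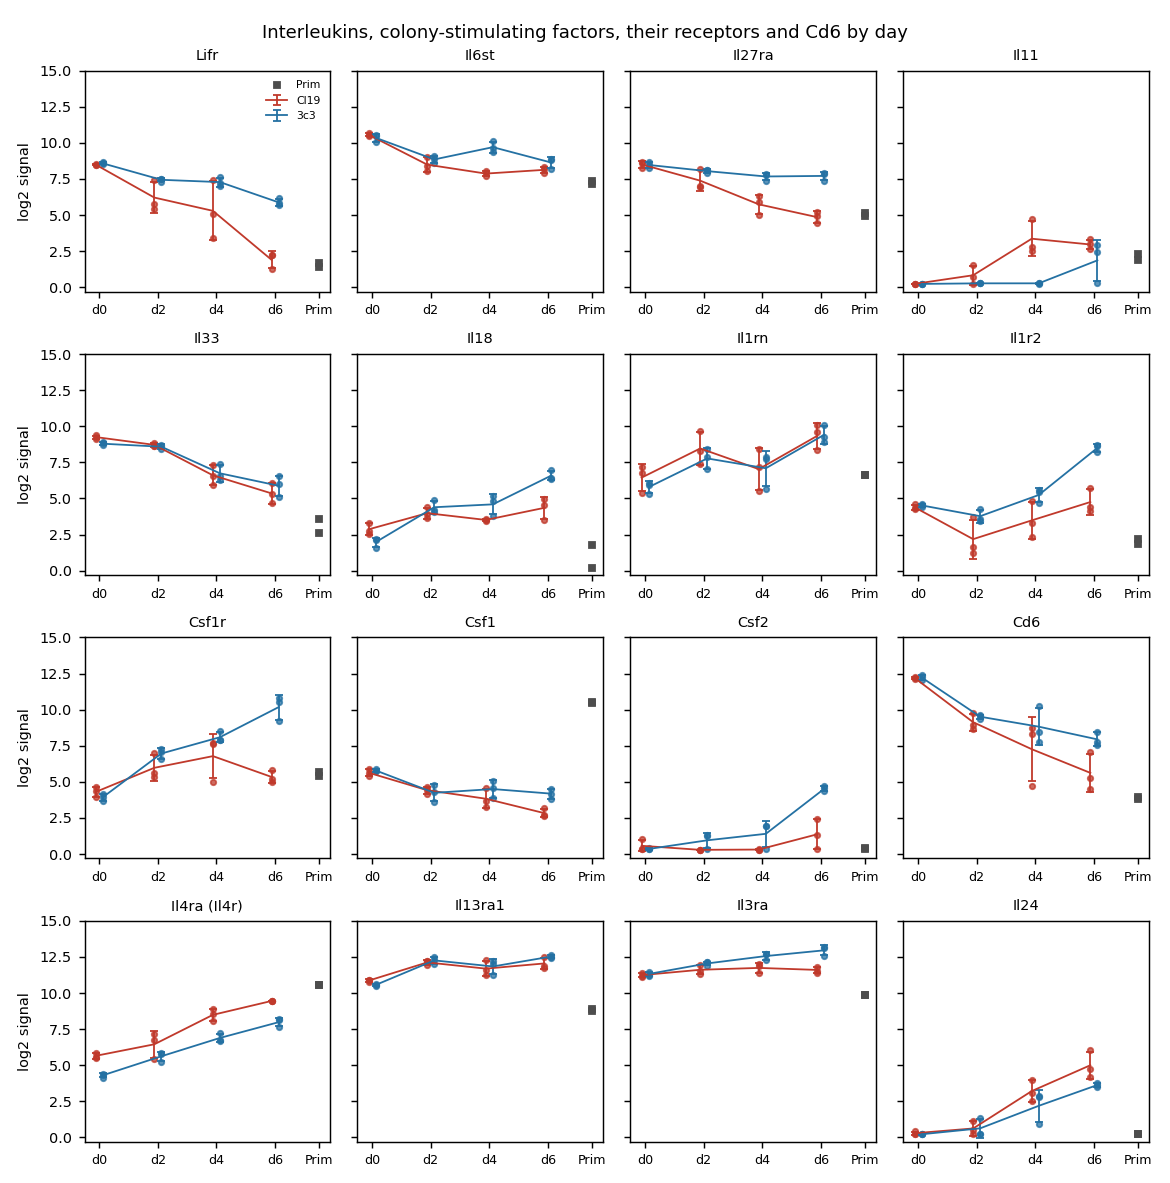
Log2 signal (vertical axis) by day (horizontal axis) of 16 cytokine and receptor genes in Cl19 and 3c3, with points for arrays, lines for means, bars for the SD of 3 arrays and squares for the 2 Prim arrays. Lifr, Il6st, Il33 and Cd6 decline in both lines, Csf1r climbs to 9.18 to 10.81 in 3c3 alone, and Il4ra climbs in both.

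Of the type 2 cytokine receptors, the IL-4 receptor chain (Il4ra on the array, Il4r) rose in both lines. In Cl19 it lay at 5.50, 5.56 and 5.88 on d0, 5.42, 6.75 and 7.18 on d2, 8.06, 8.52 and 8.88 on d4, and 9.44, 9.46 and 9.45 on d6. The values in 3c3 were 4.41, 4.14 and 4.33 on d0, 5.75, 5.25 and 5.87 on d2, 6.78, 6.70 and 7.20 on d4, and 8.11, 7.65 and 8.18 on d6. It rose 14-fold (3.80, SE 0.31, adjusted p = 7.7e-09) and 12.9-fold (3.69, SE 0.31, adjusted p = 2.3e-08) by d6, and the difference was 0.12 (SE 0.44, adjusted p = 0.93). On d2 the Cl19 change was 0.81 (adjusted p = 0.074), or 1.32 without replicate 1 (adjusted p = 0.00039). Il13ra1, its partner for IL-13, rose from 10.76, 10.90 and 10.93 to 11.88, 11.76 and 12.52 in Cl19 (1.19, SE 0.25, adjusted p = 0.00054) and from 10.64, 10.56 and 10.46 to 12.65, 12.50 and 12.43 in 3c3 (1.97, SE 0.25, adjusted p = 3.6e-06). The other 3 Il13ra1 probes rose by 1.23 to 1.33 in 3c3 and read 0.49 to 0.66, not called, in Cl19. The probe used has rn4 coordinates on chromosome 11 in the array annotation, which is not the chromosome RefSeq gives for the gene, so its values are uncertain. Il13 itself was not called in either line (-0.20, adjusted p = 0.81, and -0.23, adjusted p = 0.77).

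Il24, an IL-10 family ligand, rose from below background in both lines. On d6 it read 4.72, 6.06 and 4.21 in Cl19, beside 0.23, 0.23 and 0.43 on d0 (4.70, SE 0.49, adjusted p = 1.6e-07, at least 6.22-fold). In 3c3 it read 3.49, 3.63 and 3.76, beside 0.22, 0.21 and 0.24 (3.41, SE 0.49, adjusted p = 1.3e-05, at least 1.94-fold). No d6 array overlapped with d0. Il12a, the p35 subunit of IL-12, was called in Cl19 on d2 (1.84, adjusted p = 0.016; without replicate 1, 2.03 and 0.017) and d4 (2.10, adjusted p = 0.0029) but not on d6 (1.04, adjusted p = 0.11), and in 3c3 on d6 (2.07, SE 0.53, adjusted p = 0.0031). The 3c3 call was lost with dim values set to a floor (0.48, adjusted p = 0.36) or normexp correction (0.09, adjusted p = 0.29). No d0 array of 3c3 was well above background. No fold is given for 3c3, since the d6 mean of 2.63 lay within the lowest signals above background on the d0 arrays, 2.40 to 3.15. In Cl19 the d6 change was called when that line was fitted alone (1.04, adjusted p = 0.0037), with 75th percentile scaling (1.33, adjusted p = 0.035) and in the deposited table (1.66, adjusted p = 0.0097). The p19 subunit of IL-23, Il23a, rose in Cl19 to 4.10, 3.05 and 3.42 from 2.44, 1.76 and 1.52 (1.62, SE 0.48, adjusted p = 0.0079, at least 2.25-fold). In 3c3 it was lower on d2 (-1.46, adjusted p = 0.039) and near d0 on d6 (0.20, adjusted p = 0.77). Il15 rose in 3c3 (2.51, SE 0.69, adjusted p = 0.0053, at least 1.95-fold) and read 0.09 in Cl19 (adjusted p = 0.93), though the line difference was not called (-2.42, SE 0.98, adjusted p = 0.10).

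Of the remaining interleukin receptors, several changed in 1 line. Il3ra, the IL-3 receptor chain, lay at 11.48, 11.20 and 11.28 on d0 and 12.54, 13.21 and 13.12 on d6 in 3c3, 3.11-fold higher (1.64, SE 0.20, adjusted p = 2.2e-06). In Cl19 it was called on d4 (0.50, adjusted p = 0.047) and not on d6 (0.35, SE 0.20, adjusted p = 0.15). Il10rb, shared by IL-10, IL-22 and type III interferons, rose in 3c3 from 7.74, 7.53 and 7.71 to 8.62, 8.85 and 8.79 (1.09, SE 0.26, adjusted p = 0.0019) and read -0.24 in Cl19 (adjusted p = 0.46). Il21r rose in Cl19 from 3.87, 2.28 and 3.38 to 5.42, 6.74 and 6.04 (2.89, SE 0.86, adjusted p = 0.0081) and read -0.90 in 3c3 (adjusted p = 0.42). Il17re, an IL-17C receptor chain, lay at 3.73, 3.36 and 2.58 on d0, 2.71, 1.17 and 1.65 on d2, 3.99, 5.14 and 4.95 on d4 and 5.71, 6.12 and 4.38 on d6 in Cl19. It was thus lower on d2 (-1.38, adjusted p = 0.024; without replicate 1, -1.81 and 0.0043) and 4.53-fold higher on d6 (2.18, SE 0.43, adjusted p = 0.00024). In 3c3 it fell from 3.69, 4.03 and 3.45 to 2.90, 2.50 and 2.60 (-1.06, SE 0.43, adjusted p = 0.047), a call at the threshold that was lost when any of 15 arrays was left out (adjusted p = 0.051 to 0.14). Il17ra, the common IL-17 receptor chain, fell in Cl19 by 0.69 (SE 0.18, adjusted p = 0.0029) and read 0.17 in 3c3 (adjusted p = 0.46). Il9r was called on d4 in 3c3 (-1.81, adjusted p = 0.031) but on d6 in neither line, except in Cl19 with the replicate block (-1.29, adjusted p = 0.036) or the slide as a random block (adjusted p = 0.039), and without Cl19 d6 replicate 1 (-2.22, adjusted p = 0.0023). Cxcl17, Cxcr5, Il17b, Il17rb, Il17rc, Il1rl2, Il20rb and Il2rg were not called in any comparison with d0.

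The change from d0 to d6 differed between the lines for 21 members, where 17.4% of all probes differed. Of these, 6 (Csf2, Cxcl11, Cxcl2, Cxcl3, Il1f5 and Il21r) were tested only because the d6 group of the line where they were high passed the detection filter, which favours a line difference. It was more positive in 3c3 for 14, among them Ccrl2, Csf1r, Lifr, Il1r2, Cxcl11, Csf2, Il18 and Il27ra. It was more positive in Cl19 for 7, which were Cxcl2, Cxcr3, Il21r, Cxcl3, Il6ra, Il1f5 and Il17re. The same split by direction over all probes is not given here, so this split cannot be read as particular to the members. The summed signals of other marker lists also moved apart, as that of 6 fibroblast markers went from 12.28 to 12.42 on d0 to 13.23 to 13.90 on d6 in Cl19 and from 12.15 to 12.35 to 10.60 to 11.73 in 3c3. That of 8 endothelial markers went from 8.19 to 8.48 to 5.97 to 6.65 in Cl19 and from 7.38 to 7.60 to 7.63 to 7.84 in 3c3. These sums add signal before the log, so bright genes weigh most. Of the 6 fibroblast markers, 3 rose and 1 fell by d6 in Cl19, and 1 rose and 1 fell in 3c3. The marker that fell was Pdgfra in both lines (-1.93 and -1.77), and Col1a1 rose in both (7.27 and 3.53). Of 7 endothelial markers tested, 4 fell in Cl19, and 1 rose and 1 fell in 3c3. The part of such cells in the line differences was not tested.

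**Figure D4:**
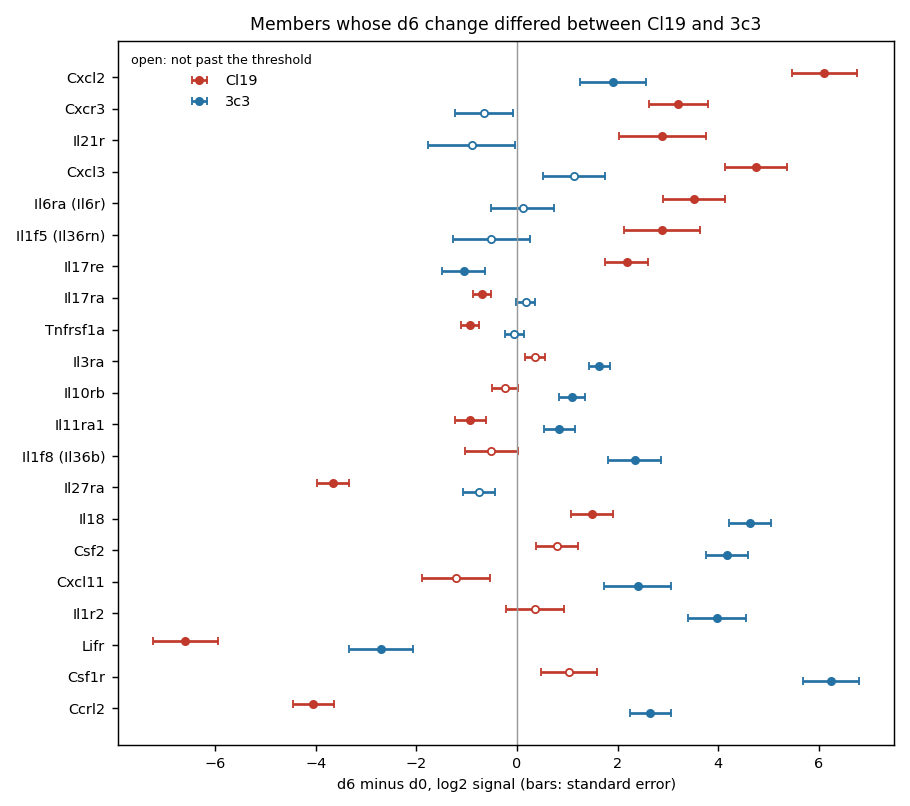
Change in log2 signal from d0 to d6 (horizontal axis, with bars of 1 SE) in Cl19 and 3c3 for the 21 members whose change differed between the lines (vertical axis), with open symbols for changes not past the threshold. Ccrl2 lies at -4.05 in Cl19 and 2.65 in 3c3, and Csf1r at 1.03 and 6.24.

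A call on d2 or d4 that was gone on d6 was found for 6 members in Cl19, where 7.85% of all probes showed one, and for 4 in 3c3, where 7.53% did. In Cl19 the largest were Csf1r, Il1r2 and Il12a, followed by Cxcl12, Il1f8 and Il3ra. In 3c3 they were Cxcl12, Il9r and Il23a, followed by Tnfrsf1a. Cxcl12 alone was on both lists, as were 1.41% of all probes.

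Genes of the same pathways that are no members were read for comparison. Of 24 JAK-STAT genes tested, 9 rose and 7 fell by d6 in Cl19, and 8 rose and 4 fell in 3c3. The shares among all probes, given above, were 22.0% and 30.3% in Cl19 and 19.7% and 28.6% in 3c3. Socs3, the feedback inhibitor that gp130 signaling induces, fell in both (-4.34, SE 0.26, adjusted p = 1.2e-10, and -3.03, SE 0.26, adjusted p = 2.1e-08), and Stat4 (4.25, adjusted p = 0.00024, and 3.40, adjusted p = 0.0021) and Stat6, which IL-4 receptors activate (1.19, adjusted p = 0.0080, and 2.78, adjusted p = 3.1e-06), rose. Of 18 NF-kB pathway genes, 4 rose and 6 fell in Cl19, and 5 rose and 7 fell in 3c3. Nfkbia, an inhibitor that NF-kB itself induces, rose in both (1.30, adjusted p = 0.00022, and 2.46, adjusted p = 2.0e-07). Rela, Ikbkb and Irak2 also rose in both lines, whereas Nfkb1, Rel, Nfkbib, Bcl3, Ikbkg and Traf3 fell in both. Activity of the pathway was not tested. Of 5 other gp130 genes, 3 rose and 2 fell in Cl19 and 2 rose in 3c3.

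Detection of these genes on the aortic RNA and in the lines overlapped in part. Of all probes, 43.6% and 44.5% were well above background on the Prim arrays, against 43.2% to 61.4% on the rMAPC arrays. The counts below are not given here for all probes. On both Prim arrays 34 members were well above background, and 7 of these were well above background throughout none of the rMAPC groups (Ccl19, Ccl2, Ccl7, Il15, Il1rl1, Il1rl2 and Il2rg). These 7 passed the detection filter through the Prim group alone, so the filter itself selected that contrast. Of 53 members that passed the filter through an rMAPC group, 24 were well above background on no Prim array, among them Tnf, Cxcl2, Cxcl3, Il33, Il18, Il24, Lifr and Cd6. Some members that rose in the lines were bright there, such as Il4ra at 10.57 and 10.55 and Cx3cl1 at 11.02 on both, and some that fell were as well, such as Csf1 at 10.54 and 10.49. Il17b, which was not called in the lines, lay at 9.91 and 9.84, against 3.69 to 5.23 there. These levels cannot be told apart from the scan day.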

How the data were processed

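RNA from the rMAPC lines Cl19 and 3c3 on d0, d2, d4 and d6 (3 arrays each) and aortic RNA (Prim, 2 arrays) was hybridized by the authors to 1-colour (Cy3) Agilent rat whole genome arrays. Per the labels, Agilent Feature Extraction 10.1.1.1 was used. The deposited scanner files hold processed signal intensities, already background-subtracted, and the deposited table holds their log2 without normalization between arrays. Probe coordinates in the file headers refer to rn4.

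Here the processed intensities were taken to log2, quantile-normalized over gene features of all 26 arrays as the methods state, and averaged per probe. A probe was tested if all arrays of 1 or more of the 9 groups showed it well above background, and the brightest probe stood for a gene. Groups were compared with limma 3.58.1 in R 4.3.3 with Benjamini-Hochberg adjustment over 24442 probes, after a check on simulated data. The number of arrays limits the precision. Array names were updated through RefSeq, where all 125 matched. A replicate number marks a slide, which carried the 4 days of a line, and same-slide deviations from the group means correlated at 0.06 to 0.49 in Cl19 (over 0.1 in 16 of 18 pairs) and 0.20 to 0.75 in 3c3. Blocked values are given where they change a call. The alternatives covered scaling, background correction, filters, floors, blocks, separate fits, probes and left-out arrays, and the authors' area method. Bounds used the lowest signal called well above background on an array.

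The members and lists were chosen with earlier results of these data known. Genes named with values were the 12 with the largest d6 change per line among called members whose d0 and d6 arrays did not overlap, every member whose d6 change differed between the lines, the 3 largest changes per line called on d2 or d4 but not d6, and members of fixed ligand and receptor sets. This rule named 42 members, and the other 18 are mentioned in addition by their role. Some items are not reported here.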

Additional observations from a re-analysis of the deposited data

Results flagged for a closer look

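A change from d0 to d6 that differed between Cl19 and 3c3 by the test of the difference itself was found for 21 members, and each value below is the Cl19 change minus the 3c3 change in log2 signal. Negative values, a change more positive in 3c3, were -6.70 for Ccrl2, -5.20 for Csf1r, -3.89 for Lifr, -3.63 for Il1r2, -3.61 for Cxcl11, -3.38 for Csf2, -3.13 for Il18, -2.89 for Il27ra, -2.84 for Il1f8, -1.78 for Il11ra1, -1.34 for Il10rb, -1.28 for Il3ra, -0.88 for Tnfrsf1a and -0.86 for Il17ra. Positive values were 4.20 for Cxcl2, 3.86 for Cxcr3, 3.79 for Il21r, 3.61 for Cxcl3, 3.41 for Il6ra, 3.40 for Il1f5 and 3.24 for Il17re. Csf2, Cxcl11, Cxcl2, Cxcl3, Il1f5 and Il21r, 6 of the 21, passed the detection filter only through the d6 group of the line where they were high, which favours such a difference. Each line is 1 clone scanned on its own day, so a difference between the lines cannot be told apart from one between these clones or days.

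Some of these differences lay near the threshold. That of Il21r (SE 1.22, adjusted p = 0.036) was lost in 9 of 24 leave-one-out fits (adjusted p = 0.050 to 0.10), namely without Cl19 d0 replicate 2 or 3, Cl19 d6 replicate 2 or 3, 3c3 d0 replicate 1, 2 or 3, or 3c3 d6 replicate 2 or 3. Il1f5 was lost in 8 (adjusted p = 0.052 to 0.085), namely without Cl19 d0 or d6 replicate 2 or 3, or 3c3 d0 or d6 replicate 1 or 2. Il17ra was lost in 4 (adjusted p = 0.051 to 0.064), without Cl19 d0 replicate 1 or 3, Cl19 d6 replicate 2 or 3c3 d6 replicate 3. Tnfrsf1a was lost in 4 (adjusted p = 0.055 to 0.059), without Cl19 d0 replicate 2, Cl19 d6 replicate 3, 3c3 d0 replicate 3 or 3c3 d6 replicate 2. Without replicate 3 of 3c3 on all days, the calls of Il10rb (-1.34, adjusted p = 0.077) and Il11ra1 (-1.66, adjusted p = 0.062) were also lost.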

How the results depend on the processing

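No value changed direction where either setting called it, while 23 values called in neither had the other sign. The filter moved counts most: 18 members were well above background on every rMAPC array, and among these 11 changed over time in Cl19 (62.8% of such probes), 12 in 3c3 (59.6%) and 9 in both (48.4%), and 7 differed between the lines (19.5%). Of these 18, the numbers higher and lower in Cl19 were 3 and 4 on d2 (12.7% and 14.8% of such probes), 4 and 7 on d4 (20.7% and 33.6%), and 3 and 7 on d6 (21.8% and 36.5%), and in 3c3 5 and 3 (12.2% and 12.4%), 6 and 5 (18.0% and 26.2%), and 8 and 4 (22.6% and 33.7%). With 1 array above background enough, 81 genes were members. The area method put 10 members over its threshold in both lines, with 5.71% of probes, all of them also called here over time. Normexp correction left 17 changed in both lines, with 3 higher on d2 and 8 on d4 in Cl19 and 5 on d2 in 3c3. On the deposited table the median change of all probes on d6 moved to 0.10 and 0.09, and 3c3 had 14 higher on d2 and 21 higher and 4 lower on d4. The share of calls that were higher moved from 40.0% to 52.9% on d2 in Cl19, from 57.1% to 70.0% on d2 and from 61.9% to 84.0% on d4 in 3c3, and with normexp on d2 to 30% and 45.5%. A floor gave 7 higher on d4 in Cl19, the replicate block 10 higher on d2 in Cl19, and a fit for each line 5 lower on d2 in Cl19. Without 3c3 replicate 3 on all days, d2 in 3c3 had 4 higher and 3 lower. Except for the filter and the area method, the share of all probes called under each setting is not given here. These moves therefore cannot be read as particular to the members. The cause of these moves was not tested.

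Leaving out 1 array at a time gave 2 to 8 members higher and 4 to 12 lower on d2 in Cl19 (2 and 4 without d2 replicate 2, 5 lower without d2 replicate 3) and 3 to 6 lower on d2 in 3c3 (3 without d2 replicate 1 or 3). On d6 the ranges were 19 to 21 higher and 12 to 13 lower in Cl19 and 21 to 24 and 7 to 9 in 3c3. The matching ranges over all probes are not given here. Other d6 calls that were lost included Il17re in 3c3, without 15 arrays (all 3 of d0, d2 and d6 and replicates 1 and 2 of d4 in 3c3, and in Cl19 d0 replicate 2, d2 replicate 3, d4 replicate 3 and d6 replicate 1), and, with normexp, Il24 (0.26, adjusted p = 0.059) and Il12a (0.09, adjusted p = 0.29) in 3c3, and with a floor Il11 in Cl19 (0.60, adjusted p = 0.39). The replicate block changed no other call of a named member on d6 than those of Il27ra in 3c3 and Il9r in Cl19 (-1.29, adjusted p = 0.036). Dim signal limits what could be seen, as many d0 levels were only bounded.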

Other observations

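Of the 65 genes that match the names but were not tested, 21 were well above background on some array. The receptors for neutrophil chemokines, on the array as Il8ra and Il8rb, were so on 3 arrays and 1 array at most.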
